A study of Mus musculus with 2 samples.

Results

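In 496 autosomal windows of 1 kb, the wild-type library of a uH2A ChIP-Seq pair held at least 5 times the scaled tags of the Bmi1 null library, yet no peak of the deposited list overlapped the window. The windows were selected on the tag counts themselves. Each held 11 or more wild-type tags, with 1 tag kept per position and strand (distinct tags), and its wild-type tags, once scaled to the size of the null library (times 1.28), came to 5 or more times the null tags, taken as at least 1. Of 2157021 autosomal windows with a tag in either library, 950 (0.0440%) passed these limits; 454 of them overlapped a listed peak and 496 did not. With the genotypes exchanged, 10 windows (0.000464%) passed, and none of the 10 overlapped a peak. There the minimum of 11 applied to null tags divided by 1.28, so a window needed more than 11 distinct null tags. The exchanged rule was thus stricter in unscaled tags, and 950 against 10 is not a comparison at an equal unscaled minimum. The numbers of windows depended on the counting. Outside the peaks, 340 wild-type-enriched and 100 null-enriched windows passed with the libraries scaled within each 1 Mb. With all tags counted the numbers were 7987 and 3416. Because the counts chose the windows, the wild-type excess within them is a description of the choice and was not tested.

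The libraries came from mouse embryonic fibroblasts (MEFs) of C57BL/6 background that had been immortalized with TBX2. One group was wild type for Bmi1 (Bmi1 WT) and the other lacked Bmi1 (Bmi1 KO, here called Bmi1 null), with 1 line from littermates and 1 library for each genotype. Chromatin of untreated, crosslinked cells was precipitated with the E6C5 antibody against uH2A, and the null library served as the background of the peak list. The wild-type library held 6114925 tags, 4096561 of them distinct, and the null library held 8020248 and 5253063. With no replicate of either genotype, genotype and library cannot be told apart. All intervals below are at 95% and cover counting error only.

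Histone H2A that carries a single ubiquitin (uH2A) is a mark of Polycomb repressive complex 1 (PRC1). Ring1b is the catalytic subunit of this complex, and Bmi1 is a partner that stimulates it. The mark is known from repressed developmental genes, often beside trimethylated lysine 27 of histone H3 (H3K27me3), which Polycomb repressive complex 2 lays down, whereas H3K4me3 marks promoters that can be transcribed.

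Sequences are shown for promoters at which a selected window held the start site, since these tie the windows to named genes. The 300 bases of each, from 250 before the start of the gene to 50 after it, are RefSeq promoters of build GRCm38.p6 for 4 genes whose start site lay in a selected window. They are the 2 genes with H3K27me3 only and the 2 with H3K4me3 only that had the most wild-type tags among those with an entry in the table. Ptpn4 was level with Taf15, Itga1 and Prickle1 at 12 wild-type tags, and had the fewest null tags of these (1). The mark classes are annotation that the paper took from an earlier study. Dkkl1 (chr7:45211834-45212133, minus strand) and Slc15a1 (chr14:121505205-121505504, minus strand) were classed as H3K27me3 only. Rasl11a (chr5:146844821-146845120, plus strand) and Ptpn4 (chr1:119837022-119837321, minus strand) were classed as H3K4me3 only. Capitals mark CG dinucleotides, the sites of DNA methylation. The windows themselves are in mm8, and no position was converted between the builds.
Dkkl1: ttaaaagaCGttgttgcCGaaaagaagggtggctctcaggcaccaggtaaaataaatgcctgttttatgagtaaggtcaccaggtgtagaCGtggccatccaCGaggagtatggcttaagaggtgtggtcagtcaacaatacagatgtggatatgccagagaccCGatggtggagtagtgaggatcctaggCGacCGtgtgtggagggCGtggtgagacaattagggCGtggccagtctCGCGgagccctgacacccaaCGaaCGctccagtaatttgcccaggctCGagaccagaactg
Slc15a1: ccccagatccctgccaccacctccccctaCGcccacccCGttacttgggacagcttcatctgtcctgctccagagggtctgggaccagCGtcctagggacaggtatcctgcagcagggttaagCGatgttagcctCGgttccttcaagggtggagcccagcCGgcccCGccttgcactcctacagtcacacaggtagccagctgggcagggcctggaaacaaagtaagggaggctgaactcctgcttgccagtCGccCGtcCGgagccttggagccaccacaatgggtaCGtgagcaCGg
Rasl11a: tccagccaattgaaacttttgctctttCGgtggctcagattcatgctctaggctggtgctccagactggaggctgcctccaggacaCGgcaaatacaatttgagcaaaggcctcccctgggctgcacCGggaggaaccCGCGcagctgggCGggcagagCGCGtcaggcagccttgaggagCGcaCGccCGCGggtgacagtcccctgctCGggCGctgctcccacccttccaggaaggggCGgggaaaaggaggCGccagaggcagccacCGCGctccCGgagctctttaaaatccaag
Ptpn4: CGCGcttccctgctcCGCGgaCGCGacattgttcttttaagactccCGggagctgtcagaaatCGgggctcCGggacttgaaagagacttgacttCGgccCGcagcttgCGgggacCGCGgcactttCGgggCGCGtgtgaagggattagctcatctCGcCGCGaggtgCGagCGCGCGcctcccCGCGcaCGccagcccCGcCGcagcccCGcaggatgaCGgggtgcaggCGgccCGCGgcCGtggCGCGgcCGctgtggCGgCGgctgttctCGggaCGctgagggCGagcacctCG

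CG dinucleotides numbered 14 in the sequence of Dkkl1, 12 in Slc15a1, 19 in Rasl11a and 44 in Ptpn4. Of the 20 genes whose promoters the windows touched, 13 had an entry, with a median of 19 CG dinucleotides and 63.0% G or C, beside 7 and 52.7% over all 32851 promoters of the table. The supplied gene table, in the rows at hand, lists CpG-rich promoters only, which bears on this comparison. Ctbp2, Gm5089, Prickle1 and Ttc16 had 2 entries each and Nfix had 4. Entries were not matched to the touched start site, so an entry may be another promoter of the gene. The CCAAT box (CCAAT on either strand) was in 6 of the 13, among them Rasl11a, and in 37.4% of all promoters. The E-box CACGTG was in 0 of the 13 and in 7.15% of all promoters.

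The members were modest in number of tags. They held a median of 12 distinct wild-type tags (11 to 25) and 2 null tags (0 to 6), and the quartiles of the wild-type count were 11 and 13. The limit therefore cut through a dense range of counts. At exactly 11 wild-type tags there were 175 members, and just outside, at 10 tags with the ratio met and no peak, there were 402 windows. A scaled ratio of 5 to under 5.5 was found in 109 members, and 225 further windows outside the peaks with 11 or more tags had a ratio of 4.5 to under 5. At the level of a single window the counts were small, and the lower bounds of the ratio ran from 1.38 to 4.60 with a median of 1.54. No member had a lower bound of 5 or more.

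Repeated tags were about as frequent in the members as elsewhere. With all tags counted, the windows held a median of 18 wild-type and 3 null tags, and 31.6% of their wild-type tags were repeats of a position and strand, beside 33.2% over the autosomes. The 454 windows within peaks had the same median of 12 distinct wild-type tags, and a median of 19 in all tags, close to the members. Pooled over these windows 58.0% of the wild-type tags were repeats, a share raised by a few windows with many tags (up to 856; quartiles 16 and 22). Their null tags were also repeated less often (21.6%, against 34.1% in the members). Distinct wild-type tags fell on both strands in all 496 members, with 3 or more on each strand in 490, and 50.4% (49.1 to 51.6) were on the plus strand. Tags without a mismatch made up 49.1% of the distinct wild-type tags in the members and 41.4% over the autosomes, where the null library had 54.0% and 45.9%. More tags without a mismatch were thus present in the members in both genotypes, and what part this had in the selection was not tested.

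The member with the most wild-type tags lay on chromosome 4 at 138478001 to 138479000, where wild type had 25 tags and null had 6, at a scaled ratio of 5.34 (2.14 to 15.9). Next were 20 and 2 tags on chromosome 10 from 59753001, a ratio of 12.8 (3.11 to 113). Windows with 19 wild-type tags followed on chromosome 17 from 25733001 (3 null tags), on chromosome 10 from 62282001 (4) and on chromosome 15 from 88974001 (4). The intervals of these 5 windows overlapped, so their order by ratio was not resolved at this depth. Windows with 18 wild-type tags lay on chromosome 17 from 34223001 (3 null tags) and on chromosome 11 from 59790001 (4), and the latter was 941 bp from a listed peak. The 5 windows with 17 lay on chromosome 10 from 79681001 (1 null tag), on chromosome 11 from 5692001, chromosome 2 from 31623001 and chromosome 9 from 58110001 (3 each), and on chromosome 14 from 69280001 (4). None of these 12 touched a supplied promoter, and their position relative to other genes was not analysed here. All 12 lay in a run of tags whose ratio was under the limit of the list.

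Which limit of the list the members missed was read from the units in which it was called. A peak of the list is a run of wild-type tags of any length, with each tag moved 116 bp along its strand and joined to the next over gaps of up to 4 times that distance. A run had to pass a Poisson p-value of 1e-05 and a ratio of 5 or more over the null tags in the same run, with repeats included. The mean density of wild-type tags behind the p-value was inferred here from the deposited p-values. When the runs were rebuilt on the autosomes, 16193 passed both limits, and 16155 of these equalled a listed peak within 1 bp at each end, out of 16205 listed there. The members were then placed in their runs, which numbered 492 for the 496 windows.

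Since runs that pass both limits are the listed peaks and members lay outside these, the run of a member had to miss a limit by the way members were chosen. The minimum of 11 tags also favoured runs that pass the p-value, which left the ratio as the limit to miss. In 471 members (95%, 92.6 to 96.7) the run passed the p-value and missed the 5-fold limit, in 17 it missed both, and in 8 it missed the p-value alone. In all, 488 of 496 members (98.4%, 96.8 to 99.3) lay in a run under the fold limit. This share followed the tag minimum, with 88.8% at 9 tags and 100% at 15, and is a description of the choice. Over all rebuilt runs past the p-value, which were not chosen in this way, 28434 of 44627 (63.7%) were under the fold limit. The median ratio of the members' runs was 3.37 (1.29 to 9.84), and 122 were between 4 and 5. The 8 runs that missed the p-value alone had 12 to 16 wild-type tags over 985 to 1711 bp, ratios of 5.25 to 9.84 and p-values of 1.2e-05 to 0.000165.

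**Figure D1:**
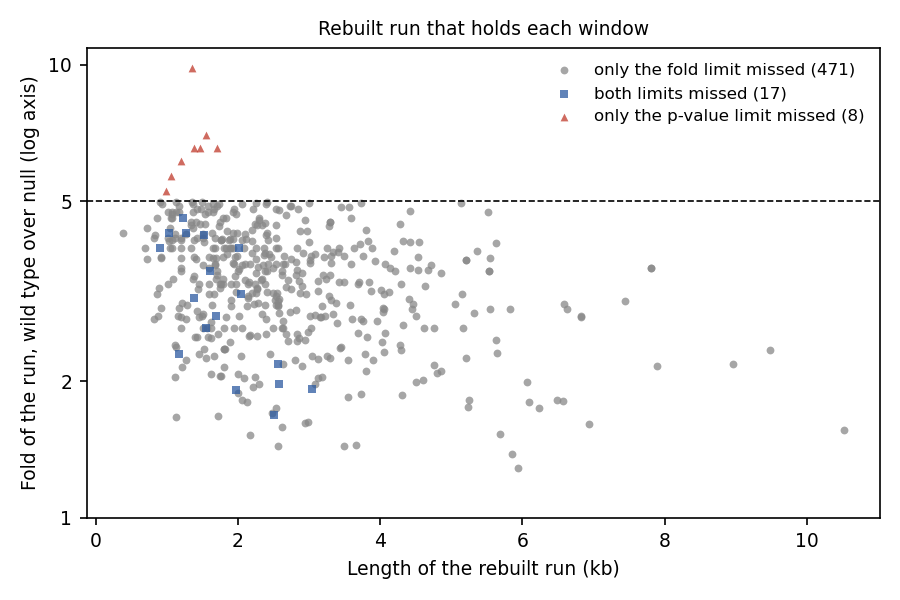
Length of the rebuilt wild-type run around each of the 496 windows (x axis, kb) and the ratio of scaled wild-type to null tags in that run (y axis, log axis), 1 point per window. The dashed line is the limit of 5; 488 points lie under it, and the 8 triangles above it missed the p-value limit.

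The members' runs were mostly longer than the window. A member's run spanned a median of 2350 bp (379 to 10519), and 478 of 496 were longer than 1 kb; the runs of the windows within peaks spanned a median of 1393 bp and all listed runs a median of 750 bp. The median run of a member held 31 wild-type and 12.5 null tags, and that of a window within a peak held 24 and 4. Summed over the members, the part of the run inside the window held 8637 tags of wild type and 1828 of null, which gave a scaled ratio of 6.20 (5.89 to 6.52). The part outside held 9046 and 5963, a ratio of 1.99 (1.93 to 2.06), and with it 76.5% of the null tags of the runs. Repeated tags entered these sums, and a run shared by members entered once for each of them, so the intervals may be too narrow. In the windows within peaks the outside part had a ratio of 4.73 (4.38 to 5.11). The selection bore on both parts, because the window had to have few null tags and the whole run had to be off the list for members and mostly on it for the others, so these ratios describe the choice and explain nothing beyond it.

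Most members met the fold limit as windows of their own, which their choice at 5-fold on distinct tags favoured. The share is therefore a description of the choice. With all tags counted, 388 (78.2%, 74.3 to 81.8) had a ratio of 5 or more within the 1 kb, and 380 of these lay in a run under 5. The other 108 were under 5 once repeated tags were included. The median distance to the nearest listed peak was 19868 bp (49 to 614050). Within 1 kb of a peak were 18 members, within 10 kb 172 (34.7%), and over 100 kb away 34. The same shares over all autosomal windows were not computed, so whether members lay nearer to peaks than other windows is not known.

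In the surroundings, the wild-type excess was small and extended far. The 986 windows directly beside members, members left out, held 5.82 scaled wild-type and 4.15 null tags per window, a pooled ratio of 1.40 (1.34 to 1.46). From 2 to 5 kb away the ratio was 1.34 (1.31 to 1.38), and from 5 to 20 kb it was 1.31 (1.30 to 1.33). Over all autosomal windows with a tag, both libraries had 2.36 tags per window after scaling. Within the members the mean was 15.8 scaled wild-type and 2.19 null tags, so the selected windows lay above their neighbours in wild type and below them in null, both of which the limits favoured. With the libraries scaled within each 1 Mb, 340 windows were selected instead, and the ratio beside those was 1.13 (1.07 to 1.19).

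**Figure D2:**
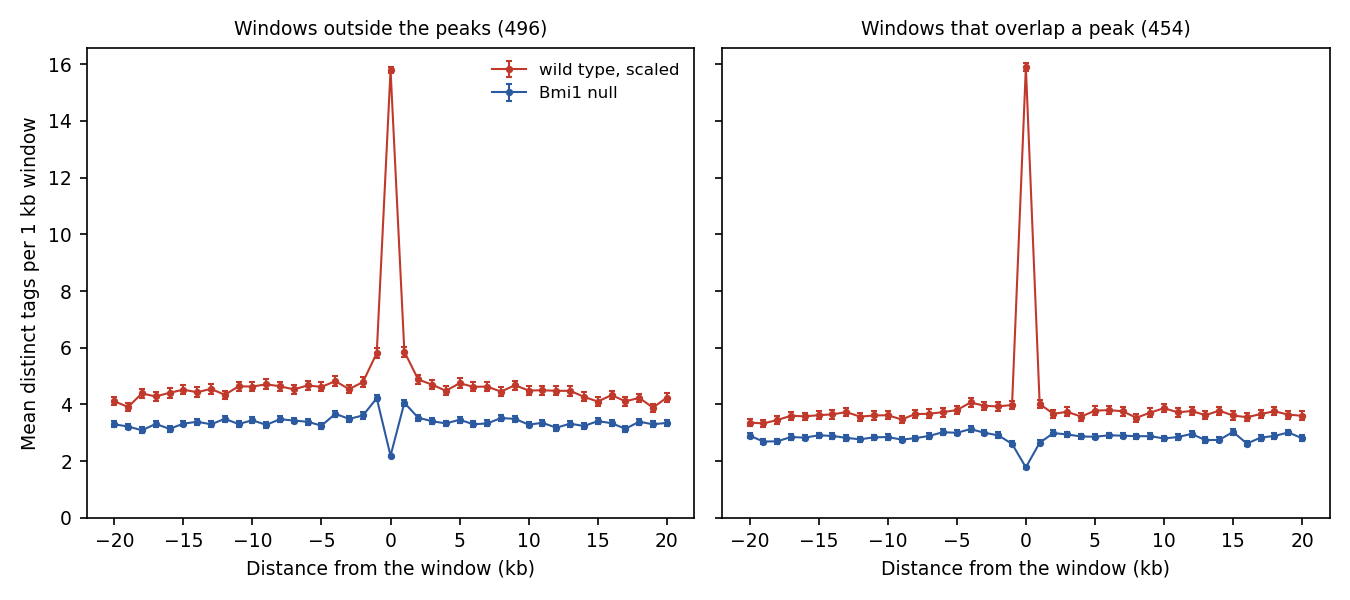
Mean distinct tags per 1 kb window (y axis) by distance from the selected window (x axis, kb), for the 496 windows outside peaks (left) and the 454 that overlap a peak (right); wild-type tags are scaled by the library totals and bars are s.e.m. across windows. Beside the 496 windows the mean is 5.82 scaled wild-type and 4.15 null tags, and the values at distance 0 were selected.

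The members did not join into domains of several kb. Only 1 pair was directly adjacent, on chromosome 17 from 55611001 to 55613000, and both windows together held 26 wild-type tags and 3 from the null library, so that 2 of 496 members (0.403%, 0.0489 to 1.45) were in a joined group. The value depended on where the windows start, as 1.99% were joined with the grid moved by 500 bp. The windows within peaks had 2 such pairs. With up to 1 window missing between them, 5 pairs of members joined, the adjacent pair on chromosome 17 included. The pair with the most tags lay on chromosome 10 from 80791001 to 80794000 (28 wild-type tags, 5 null). The others lay on chromosomes 15, 17, 1 and 2. Up to 5 kb apart 20 members joined (4.03%), and up to 10 kb apart 32 joined (6.45%), always in pairs. No group of 3 formed among members until the distance was larger. When windows within peaks could join as well, adjacency still held 2 members. In that setting 11 members joined with up to 1 window missing, 28 up to 5 kb apart and 44 (8.87%) up to 10 kb apart. The largest group at 10 kb then held 3 windows.

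At larger distances the members were unevenly spread. The median distance from one member to the next was 648 kb and the mean 4319 kb, against 1535 and 4749 kb for the windows within peaks. At up to 100 kb, 141 members (28.4%) were in groups, beside 53 (11.7%) of the windows within peaks, and the groups held up to 4 members. The richest of these were on chromosome 15, with 4 members from 86004001 to 86106000 (49 wild-type tags, 10 null) and 4 from 75564001 to 75732000 (48 and 6).

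Chromosome 15 held 97 members (19.6%) with 4.38% of the windows that had a tag. This was 1.03 members per 1000 windows, against 0.193 on the other autosomes. The windows within peaks were also more frequent there (0.497 against 0.197 per 1000), and 6.32% of the listed autosomal peaks lay on it. Its scaled ratio outside the members was 1.07 (1.06 to 1.07), within the range of the autosomes, which ran from 0.915 on chromosomes 14 and 16 to 1.12 on chromosome 4. The fewest members per 1000 windows were on chromosomes 3 (0.0717), 18 (0.0746) and 16 (0.0812).

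Within chromosome 15 the members lay mostly in 3 stretches of consecutive megabases that each held a member, and these stretches were picked after their values were seen. Together they spanned 20 Mb and held 82 of the 97. From 72000001 to 81000000 there were 38 members, and the scaled ratio of the tags outside them was 1.36 (1.34 to 1.38). From 82000001 to 87000000 there were 20 members and a ratio of 1.40 (1.37 to 1.43), and from 97000001 to 103000000 there were 24 and a ratio of 1.29 (1.27 to 1.32). On other autosomes, the stretch from 122000001 to 128000000 of chromosome 8 held 15 members at a ratio of 1.42 (1.39 to 1.45). Stretches of 5 Mb on chromosome 2 from 29000001 and on chromosome 17 from 25000001 held 11 members each, at ratios of 1.30 (1.27 to 1.33) and 1.31 (1.28 to 1.33). Lower ratios were found in the stretch of 6 Mb on chromosome 19 from 3000001 with 12 members, 1.09 (1.07 to 1.12), and in that of 5 Mb on chromosome 11 from 100000001 with 8 members, 1.18 (1.15 to 1.21). With the 3 on chromosome 15, these are the 8 stretches of 5 or more megabases. A single megabase of chromosome 10, from 80000001, held 7 at 1.39 (1.34 to 1.45).

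Members were frequent where both libraries had many tags. Of 2359 megabases with 500 or more covered windows, sorted into quintiles by null tags per covered window with member windows left out, the highest quintile held 385 members (77.6%) and the lowest 8 (1.61%). Per 1000 windows this was 0.850 against 0.0200, and the windows within peaks went from 0.0375 in the lowest to 0.601 in the highest. The scaled ratio also differed along this order, from 0.898 (0.895 to 0.901) in the lowest quintile to 1.15 (1.15 to 1.16) in the highest. Tag density, the ratio and the number of members were thus all higher in the highest quintile than in the lowest. The order was not strict, since the quintile next to the lowest had 0.0143 members per 1000 windows and a ratio of 0.891 (0.888 to 0.893). What part tag density and the ratio had in the number of members was not tested. In megabases with a null density of 3 or more tags per window, chromosome 15 had 2.32 members per 1000 windows and the other autosomes 1.34, at the same pooled ratio of 1.23. Tag density there was still higher on chromosome 15, with 3.52 null tags per window against 3.30 and 4.34 scaled wild-type tags against 4.06. When the libraries were scaled within each 1 Mb, 340 windows were selected, 327 of them members already, and 57 (16.8%) lay on chromosome 15. The same scaling raised the number of null-enriched windows outside peaks from 10 to 100.

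**Figure D3:**
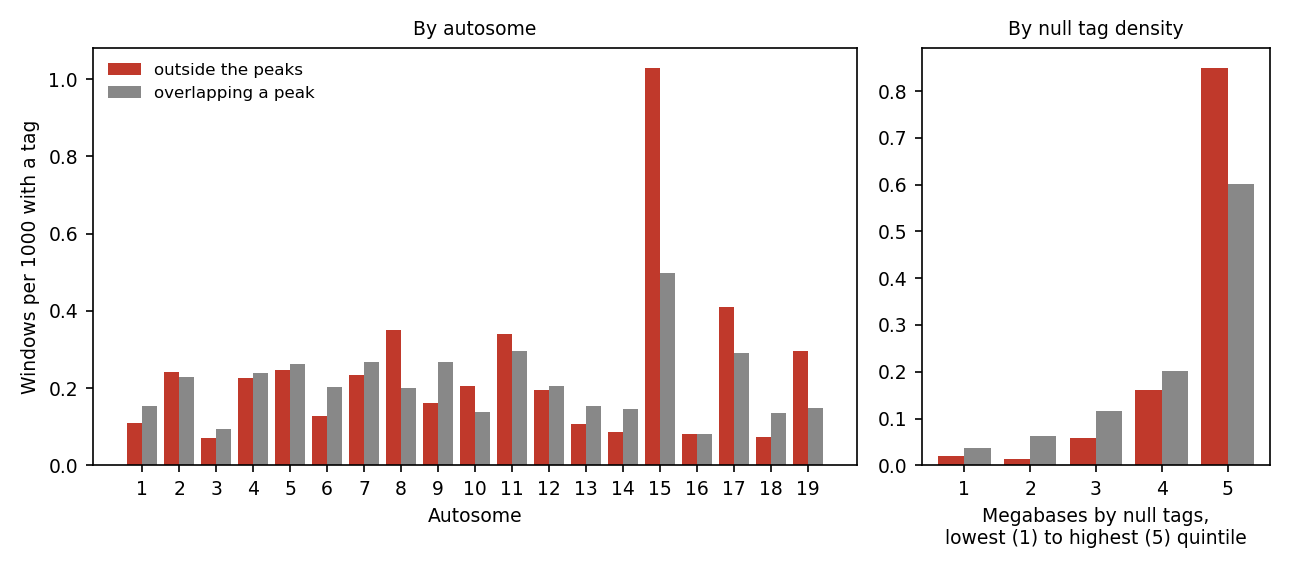
Selected windows per 1000 windows with a tag (y axes) by autosome (left) and by quintile of null tags per covered window over megabases (right), for windows outside the peaks and windows that overlap a peak. Chromosome 15 reached 1.03 and 0.497 per 1000, and the highest quintile 0.850 and 0.601.

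Of the promoters supplied with the study, members touched 20. The number depended on the placement of the tags, with 12 promoters touched when the 5 prime ends were shifted and 96 when all tags were counted, so the genes named here are those of 1 way of counting. The rows at hand of the gene table, which is held only in part, gave 1928 autosomal promoters of 2 kb, and 19 of them (0.985%, 0.594 to 1.53) were touched by 1 bp or more; the windows within peaks touched 10. The table of promoters with a peak gave 655, of which members touched 1 and the windows within peaks 42, as that table was made from the list. In the gene table, members touched 8 of 635 promoters with H3K27me3 only (1.26%, 0.545 to 2.47) and 11 of 1293 with H3K4me3 only (0.851%, 0.425 to 1.52). These intervals overlapped, and a difference between the classes was not detectable at these numbers. In 13 of the 19 the window held the start site itself.

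**Figure D4:**
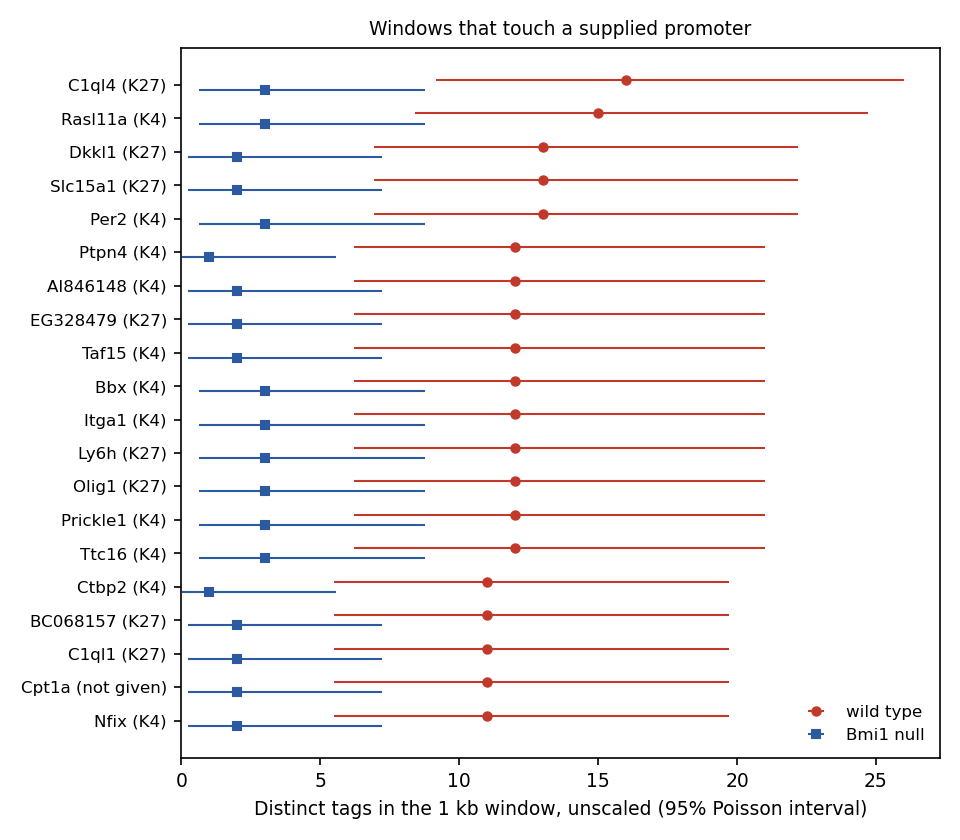
Distinct tags in the 1 kb window that touches each of 20 supplied promoters (x axis, unscaled), for wild type (circles) and Bmi1 null (squares), with Poisson intervals at 95%; K27 and K4 stand for H3K27me3 only and H3K4me3 only. The windows hold 11 to 16 wild-type and 1 to 3 null tags, values that the selection required.

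Among the promoters with H3K27me3 only, C1ql4, which encodes a secreted protein of the C1q family, had the most tags, 16 in wild type (Poisson interval 9.15 to 26.0) and 3 in null (0.619 to 8.77). Its window was centred 738 bp before the start site, on chromosome 15 from 98916001 to 98917000. C1ql1, a secreted relative that acts at synapses of the cerebellum, had 11 and 2 tags in a window centred 51 bp after the start. Both windows lay in runs under the fold limit (2.79 and 2.05), a trait of 19 of the 20 genes touched. Olig1, a basic helix-loop-helix factor of the oligodendrocyte lineage, had 12 wild-type and 3 null tags in a window centred 873 bp after its start. Ly6h, a membrane-anchored protein of neurons, had 12 and 3 in a window centred 937 bp after the start. Slc15a1, the proton-coupled peptide transporter of the gut, had 13 and 2, and its run of 3594 bp held 50 wild-type and 18 null tags. Dkkl1, a secreted protein of developing sperm, had 13 and 2, and its run ratio of 4.87 was just under the limit. The remaining promoters of this class were those of EG328479 (12 and 2 tags; Gm5089 in RefSeq) and BC068157 (11 and 2).

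Among the promoters with H3K4me3 only, Rasl11a, a small GTPase of the Ras family, had the most tags, 15 in wild type (8.40 to 24.7) and 3 in null. With all tags counted its window held 18 and 9, a ratio of 2.62, which is under the limit. Per2, a repressor of the circadian clock, had 13 and 3 tags, and the window was centred 234 bp after the start site. Ptpn4, a tyrosine phosphatase, had 12 wild-type tags and 1 null tag. Ctbp2, a corepressor, had 11 wild-type tags and 1 null tag, and Nfix, a factor of the nuclear factor I family, had 11 and 2. Bbx, an HMG-box protein, had 12 and 3. Taf15, an RNA-binding protein of the FET family, had 12 and 2, and its run was the single one among the 20 to reach the fold limit (6.12), at a p-value of 1.3e-05. Itga1, the alpha chain of a collagen-binding integrin, had 12 and 3. Prickle1, of the planar cell polarity pathway, had 12 and 3, as did Ttc16, and AI846148 (Spindoc in RefSeq) had 12 and 2.

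Cpt1a, the carnitine palmitoyltransferase that admits long-chain fatty acids to mitochondria, was the member gene from the table of promoters with a peak. Its window on chromosome 19 from 3324001 held 11 wild-type and 2 null tags, and the listed peak lay elsewhere in the same promoter. No listed peak was present in the other 19.

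Tags in the rest of each 2 kb promoter did not enter the limits on the window, but many lay in the same run, which had to be off the list, so they were not free of the selection. Over the 19 promoters of the gene table it held 118 tags of wild type and 111 of null, and the scaled ratio was 1.36 (1.04 to 1.78), and over all 1928 autosomal promoters of that table, taken whole and with the touched ones and those with a peak included, the ratio was 1.34 (1.31 to 1.37). The values are given side by side as a description, and no difference was tested. Single promoters had few tags there, and the interval lay above 1 in 2 of the 19. Outside its window the promoter of Prickle1 had 23 tags in wild type and 9 in null, a ratio of 3.28 (1.46 to 8.05), and that of BC068157 had 12 and 4, a ratio of 3.85 (1.17 to 16.4). C1ql4 had 9 and 10 there (1.15, 0.415 to 3.16), and Nfix had 3 and 9 (0.427, 0.0744 to 1.71).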

How the data were processed

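The authors mapped 25 bp tags to mm8 and deposited 1 line per uniquely mapped tag, from which tag counts were made here. For each peak the authors deposited a count of wild-type tags, a ratio (fold) of wild-type to null tags relative to the library totals, and a p-value, from a modified TIROE algorithm with null tags as background. Windows started at multiples of 1000 bp, and a tag was placed by its BED start.

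Runs were rebuilt from all wild-type tags with a shift of 116 bp, and null tags were counted after the same shift. A window was assigned to the overlapping run with the most tags. The Poisson p-value of a run used a density of 2.83 wild-type tags per kb, the median that the deposited p-values of 15238 peaks imply (95% of peaks within 2.83 to 2.84). A run needed 9 tags, the fewest in the deposited list. Intervals were exact Poisson for counts and Clopper-Pearson for shares and ratios. With 1 library per genotype no test between genotypes was made. Repeated tags may be copies of 1 molecule, so intervals cover counting error only.

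Promoter positions and mark classes were taken as annotation from the study's tables. The paper took the mark classes from earlier published data, so they were not measured in the libraries used here. Of the 20 touched gene names, 19 matched RefSeq symbols (GRCm38.p6), 2 of them through a synonym. Regions named were the 10 members with the most wild-type tags (fewer null tags first among equals), to which the other 2 with 17 tags were added. Joined groups named were the 5 pairs with up to 1 window missing and the 2 groups up to 100 kb apart with the most wild-type tags. All genes with a touched promoter were named, as there were 25 or fewer. The members and lists were chosen with earlier results of these data known. The rule was tested on simulated data. Python 3.11.15, numpy 2.4.6, scipy 1.17.1 and pandas 2.3.3 were used.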

Additional observations from a re-analysis of the deposited data

How the results depend on the processing

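A shift of the 5 prime ends, a grid moved by 500 bp, autosomal totals and the removal of windows with a peak within 1 kb left the number of windows between 478 and 502. Counting all tags gave 7987 windows outside peaks and 3416 null-enriched ones, with 70.8% of runs under the fold limit, 2.40% joined, 96 promoters and a flank ratio of 1.20. At a minimum of 9 tags these were 1765, 70, 88.8%, 1.98%, 39 and 1.31, and at 15 tags 42, 1, 100%, 0%, 2 and 1.53. A minimum fold of 4 gave 823 windows and 16 null-enriched ones, and a fold of 7 gave 311, 1 and 11 promoters. Scaling within each 1 Mb gave 100 null-enriched windows and a flank ratio of 1.13. The shift gave 12 promoters and the moved grid 1.99% joined. The share under the fold limit was 90.5% when peaks with p-values above 1e-07 no longer counted as peaks, 90.7% with null tags by BED start and 88.9% with distinct tags in the run. Joined members were 2.02% with up to 1 window missing, 4.03% up to 5 kb and 6.45% up to 10 kb. The cause of these differences was not tested. With the density taken over the span of all chromosomes (2.32 tags per kb), chosen after seeing the data, 7 members lay in a run that passed both limits, instead of 0. No paired analysis was possible because there was 1 library per genotype. Tag depth limits the ratio of a single window, whose interval reached down to 1.38.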
